A study of Homo sapiens with 6 samples.

Results

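The 10 genes described here, AP-1 factors and immediate early genes, were followed in SCC-9 cells, a human tongue squamous cell carcinoma line, after knockdown of Ki67 through exon 7. They are the FOS family (FOS, FOSB, FOSL1 and FOSL2), the JUN family (JUN, JUNB and JUND), and ATF3, EGR1 and IER3. The genes were taken by symbol from the deposited gene table, and the set was chosen with earlier results of these data known. All 10 were found among its 25349 genes, and all 10 passed the filter on low counts that left 14661 genes for testing. The siE7 cells were given an siRNA to MKI67, which encodes the proliferation marker Ki67, with its target in exon 7, and siNC cells were given a nonspecific siRNA. Each group had 3 libraries, made from RNA of day 4 after transfections at 10 nM on days 0 and 2. The methods list more than 1 exon 7 siRNA and the labels do not say which one was used, so the group stands for knockdown with an unnamed exon 7 siRNA in a single cell line. Nothing states that the libraries came from separate cultures, so p-values measure the spread between these samples, which may be technical.

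AP-1 is a dimer of basic leucine zipper (bZIP) proteins. FOS proteins cannot pair with each other and bind DNA only with a partner such as a JUN protein, whereas JUN proteins also pair among themselves, and ATF3 can pair with JUN proteins or with itself. FOS, FOSB, JUN, JUNB, ATF3, EGR1 and IER3 are immediate early genes, whose transcription starts within minutes of growth factor or stress signals without new protein synthesis. In keratinocytes FOSL1 and JUN are AP-1 members tied to growth, migration and matrix genes. EGR1 is a zinc finger transcription factor and not a bZIP protein, and IER3 is a small early response protein that acts on survival and ERK signalling and is not a DNA-binding factor.

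The 6 libraries held between 25608192 and 29550264 counts each. Levels are normalized counts-per-million values (CPM), scaled for library composition with TMM factors. MKI67 fell from 1059 ± 26.7 CPM in siNC to 115 ± 8.70 CPM in siE7 (SD, n = 3), a log2 fold change of -3.21 (SE 0.114; adjusted p = 6.71e-08, edgeR quasi-likelihood test), and so matched the labels in all 6 libraries. siE7 replicate 1 stood apart from the other siE7 libraries: the chi-square between their counts was 61.1 and 72.7 per degree of freedom, against 5.54 to 6.22 for all other pairs within a group. Of the 12 squamous keratinocyte markers fixed for the line, all 12 were tested, and their summed level was 23674 to 25171 CPM in siNC and 21672 to 28243 CPM in siE7. Of these markers 1 rose and 5 fell at an adjusted p under 0.05 (edgeR), and 2 rose and 8 fell without siE7 replicate 1. Over all tested genes and all 6 libraries, 18.0% rose and 16.0% fell at this limit. The shares without siE7 replicate 1 are not given here, so the marker counts in that setting have none beside them. The 8 fibroblast markers in the table summed to 16.6 to 19.7 CPM in siNC and 18.3 to 24.2 CPM in siE7, the 6 endothelial markers to at most 0.568 CPM in any library, and the 3 leukocyte markers to 2.79 to 3.92 CPM and 1.49 to 3.17 CPM.

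Short stretches before the start site are shown for some of the members whose promoters held a match to an AP-1, ATF/CREB or serum response element, because these sites are the textbook route by which JUN, ATF3, FOS and EGR1 respond to signals and, for JUN, to AP-1 itself. RefSeq promoters (GRCh38.p14) matched 8 of the 10 genes, the exceptions being FOSL1 and IER3, and the 250 bases before each start were searched on both strands. Capitals mark the match. JUN and ATF3 each held the JUN-type site TGACATCA, which 2.37% of 35116 promoters held, at 67 to 60 bases before the JUN start and 123 to 116 bases before the ATF3 start:
JUN, chr1:58784087-58784134, minus strand: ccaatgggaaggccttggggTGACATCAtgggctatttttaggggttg
ATF3, chr1:212565264-212565311, plus strand: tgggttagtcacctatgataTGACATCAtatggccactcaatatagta

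EGR1 held 2 CArG boxes, the core that serum response factor (SRF) binds, at 105 to 96 and 83 to 74 bases before the start, and 1.16% of promoters held any. The stretch also holds a CRE core (TGACG, the first letters of the CRE, or CGTCA when read on the other strand) just after them:
EGR1, chr5:138465354-138465437, plus strand: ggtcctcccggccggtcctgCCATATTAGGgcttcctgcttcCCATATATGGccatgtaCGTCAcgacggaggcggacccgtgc

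JUND held the full CRE, TGACGTCA, 200 to 193 bases before its start (1.65% of promoters), and FOS and FOSB held a CRE core close to the start, at 64 to 60 and 60 to 56 bases before it:
JUND, chr19:18281795-18281842, minus strand: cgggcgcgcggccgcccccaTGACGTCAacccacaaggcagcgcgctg
FOS, chr14:75278744-75278788, plus strand: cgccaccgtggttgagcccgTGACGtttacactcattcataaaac
FOSB, chr19:45467916-45467960, plus strand: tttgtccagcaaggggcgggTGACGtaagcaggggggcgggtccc

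The CRE core is part of the full CRE and was held by 21.2% of promoters. Among the 8 genes it was found in JUN, JUNB, JUND, FOS, FOSB, FOSL2 and EGR1, and not in ATF3. In JUNB it lay 137 to 133 bases before the start, and in FOSL2 201 to 197 and 66 to 62 bases before it. The RefSeq start of FOSL2 used here lies inside the annotated span given for the gene below, and so do both matches. The consensus AP-1 site TGACTCA, held by 4.20% of promoters, was in none of the 8 windows. These matches describe letters in a window and not bound sites. Sites farther upstream, of FOS or any other gene, were not searched, so a site not found here may lie outside the window. ATF3 shares the JUN-type site with JUN, which also held a CRE core, and FOS, FOSB, FOSL2 and EGR1 share a CRE core at nearly the same distance. Whether any of these sites bears on the changes of these genes was not tested.

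Knockdown with the exon 7 siRNA was followed by changes of both signs within the group. FOSB, ATF3, FOSL2, JUNB and JUN were higher in siE7 than in siNC, FOSL1, EGR1 and IER3 were lower, and FOS and JUND did not pass the test. In bulk RNA a change in the share of cells that express a gene cannot be told apart from a change in its RNA per cell. In all, 8 of 10 members, a set chosen with earlier results known, had an adjusted p under 0.05 (edgeR), against 34.0% of all tested genes. By direction, 5 rose, against 18.0% of all tested genes, and 3 fell, against 16.0%. Of the rises, 4 held without siNC replicate 1 and 3 without siNC replicate 2 or siNC replicate 3, through JUN and JUNB. Differentially expressed genes (DEGs) were those that also changed by more than 1 on the log2 scale. FOSB and ATF3 were DEGs that rose (7.38% of all tested genes) and FOSL1, EGR1 and IER3 were DEGs that fell (4.84%), so 5 of 10 members were DEGs, against 12.2% of all tested genes. The libraries of the groups did not overlap for 9 of 10 members, against 47.6% of all tested genes. The median log2 fold change was 0.42 over the members and 0.08 over all tested genes. For single genes an exact permutation test of 3 libraries against 3 cannot give a two-sided p under 0.10, which 9 members reached, and FOS gave 0.40.

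**Figure D1:**
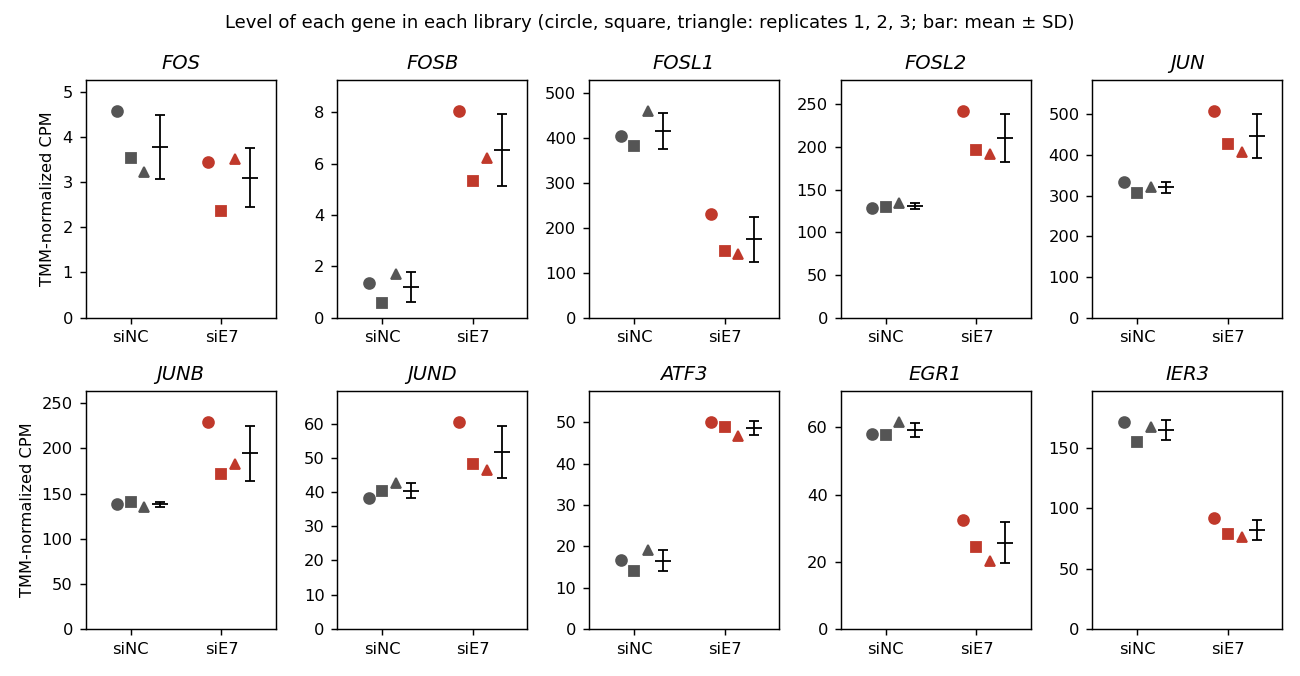
Level of each of the 10 genes in each library, in normalized CPM (y axis, from 0, a scale of its own for each gene), for siNC (grey) and siE7 (red). Circles, squares and triangles are replicates 1, 2 and 3, and bars give mean ± SD (n = 3). The groups overlap for FOS alone, and siE7 replicate 1 is the highest siE7 library for the other 9 genes.

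FOSL1 (chr11:65892049-65900573, minus strand, GRCh38), which encodes FRA-1, was the FOS family gene with most RNA and the one that fell. Its level was 405, 383 and 461 CPM in siNC replicates 1 to 3 and 231, 149 and 142 CPM in siE7. Every siE7 library was below every siNC library, and siE7 replicate 1 was the closest to siNC. The mean fell from 416 ± 40.5 to 174 ± 49.3 CPM, 2.39-fold lower, with a log2 fold change of -1.26 (SE 0.175, 95% interval -1.64 to -0.87; adjusted p = 0.000318, edgeR). Without siE7 replicate 1 the log2 fold change was -1.57.

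FOSL2 (chr2:28392448-28417317, plus strand), which encodes FRA-2, moved the other way. It was at 129, 129 and 134 CPM in siNC and 242, 197 and 192 CPM in siE7. The siNC libraries were within a few CPM of each other, and all siE7 libraries were higher. The mean rose 1.61-fold, from 131 ± 3.10 to 210 ± 27.8 CPM, a log2 fold change of 0.69 (SE 0.119, interval 0.42 to 0.95; adjusted p = 0.00129, edgeR). This was below the fold limit for a DEG, and the value without siE7 replicate 1 was 0.51.

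FOSB (chr19:45467995-45475179, plus strand) showed the largest rise of the 10 genes from one of the lowest levels. It had 33, 14 and 45 counts in the siNC libraries and 239, 147 and 190 in the siE7 libraries. In CPM this was 1.34, 0.560 and 1.70 against 8.06, 5.33 and 6.21, so that the lowest siE7 library was above the highest siNC library. The mean rose 5.44-fold, from 1.20 ± 0.584 to 6.53 ± 1.40 CPM, a log2 fold change of 2.44 (SE 0.332, interval 1.71 to 3.16; adjusted p = 0.000279, edgeR). FOSB lies over ERCC1 on the opposite strand without shared exons, and ERCC1, a DNA repair gene, fell (log2 fold change -0.50, SE 0.137; adjusted p = 0.0158, edgeR).

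FOS (chr14:75278826-75282230, plus strand), the founding member of the family, was also low. The siNC libraries had 113, 88 and 85 counts, or 4.58, 3.52 and 3.22 CPM, and the siE7 libraries 102, 65 and 107 counts, or 3.44, 2.35 and 3.50 CPM. The groups overlapped. The log2 fold change was -0.28 (SE 0.239, interval -0.80 to 0.24; adjusted p = 0.389, edgeR). The change of FOS was therefore not told apart from 0, and the interval does not reach the fall of FOSL1.

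Within the family the make-up of the RNA changed. Levels of different genes were compared per kilobase of the canonical transcript, and a share of the family level within a library does not depend on scaling between libraries. FOSL1 made up 91.6%, 91.4% and 92.5% of the FOS family level in siNC and 77.3%, 73.4% and 72.4% in siE7. FOSL2 made up 7.39%, 7.83% and 6.83% in siNC and 20.6%, 24.5% and 24.8% in siE7. For both genes the shares of the groups were far apart compared with the spread between libraries. The mean share of FOSL1 went from 91.9 ± 0.563% to 74.3 ± 2.60% and that of FOSL2 from 7.35 ± 0.499% to 23.3 ± 2.36%. FOSB went from 0.117 ± 0.0498% to 1.27 ± 0.132%, and FOS from 0.681 ± 0.158% to 1.10 ± 0.292%. FOSL1 therefore remained the main FOS family RNA per length in every library. In counts, not corrected for length, FOSL1 had 3.14, 2.96 and 3.43 times as many as FOSL2 in siNC and 0.953, 0.758 and 0.741 times as many in siE7. FOSB per length was 0.163, 0.0887 and 0.295 times FOS in siNC and 1.31, 1.26 and 0.990 times FOS in siE7.

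JUN (chr1:58776845-58784048, minus strand, a single exon in the canonical transcript), the usual partner of FOS proteins, was at 334, 307 and 322 CPM in siNC and 509, 426 and 407 CPM in siE7. All siE7 libraries were higher, replicate 1 the most. The mean rose 1.39-fold, from 321 ± 13.6 to 447 ± 54.3 CPM, a log2 fold change of 0.48 (SE 0.116, interval 0.22 to 0.73; adjusted p = 0.00839, edgeR). Without siE7 replicate 1 it was 0.31 (adjusted p = 6.72e-06, edgeR). The test was lost without siNC replicate 2 (0.44, adjusted p = 0.0625) or siNC replicate 3 (0.47, adjusted p = 0.0517).

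JUNB (chr19:12791486-12793315, plus strand, a single exon), a weaker activator that can restrain JUN, was at 139, 141 and 135 CPM in siNC and 229, 172 and 183 CPM in siE7. As for JUN, the siE7 libraries were all higher and replicate 1 was the highest. The mean rose 1.41-fold, from 138 ± 3.08 to 195 ± 30.4 CPM, a log2 fold change of 0.50 (SE 0.125, interval 0.22 to 0.77; adjusted p = 0.0106, edgeR). It was 0.30 without siE7 replicate 1 (adjusted p = 1.52e-05, edgeR), and the test was lost without any 1 of the siNC libraries (0.47 to 0.50, adjusted p 0.0511 to 0.0653). Exons of JUNB overlap exons of HOOK2 on the opposite strand, and the strand setting of the counting is not given in the sources used here. HOOK2, a linker of cargo to microtubules, rose by a similar amount (53.7 ± 3.47 to 79.3 ± 10.0 CPM, log2 fold change 0.56, SE 0.124; adjusted p = 0.00523, edgeR), and reads of the pair may be shared.

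JUND (chr19:18279694-18281622, minus strand, a single exon), the JUN family member that cells at rest also carry, had siNC levels of 38.3, 40.2 and 42.6 CPM and siE7 levels of 60.5, 48.1 and 46.5 CPM. The siE7 libraries were above the siNC libraries, by little for replicates 2 and 3. The log2 fold change was 0.36 (SE 0.132, interval 0.07 to 0.64) and missed the threshold (adjusted p = 0.0571, edgeR), and it was 0.17 without siE7 replicate 1 (adjusted p = 0.0549).

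The make-up of the JUN family moved less. JUN made up 50.6 ± 1.36% of the JUN family level per length in siNC and 50.8 ± 1.34% in siE7, JUNB 38.7 ± 1.18% and 39.3 ± 1.41%, and JUND 10.7 ± 0.685% and 9.89 ± 0.181% (SD, n = 3). The libraries of the groups overlapped for JUN and JUNB, in contrast to FOSL1 and FOSL2. For JUND they overlapped narrowly with canonical transcript lengths (siNC replicate 1 at 10.01%, siE7 replicate 1 at 10.02%) and did not with joined exon lengths (11.3 ± 0.715% in siNC, 10.4 ± 0.196% in siE7). The summed level of the JUN family was 198, 192 and 194 CPM per kb in siNC and 313, 250 and 249 in siE7, whereas that of the FOS family was 259, 246 and 293 in siNC and 176, 119 and 115 in siE7. The JUN family sum was 0.764, 0.781 and 0.664 times the FOS family sum in siNC and 1.78, 2.09 and 2.15 times in siE7. The order of the family sums was thus the opposite in the groups. These are RNA levels, and no protein or dimer was measured here.

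**Figure D2:**
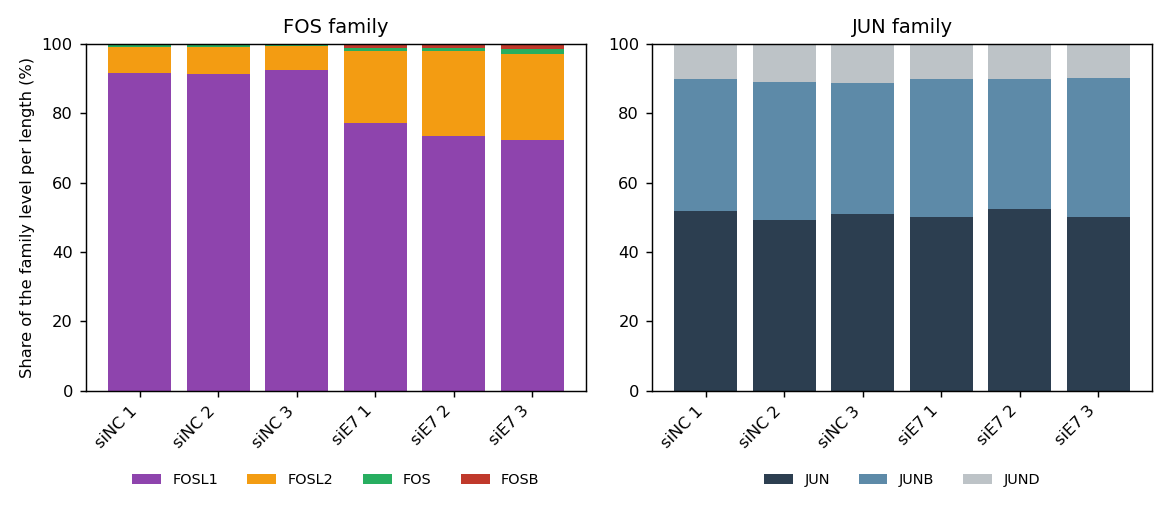
Share of each gene in the summed level per kb of its family (y axis, percent) in the 6 libraries, for the FOS family (left) and the JUN family (right). FOSL1 takes 91.4% to 92.5% in siNC and 72.4% to 77.3% in siE7, with FOSL2 taking most of the rest, while in the JUN family JUN takes about as much in siNC (50.6 ± 1.36%) as in siE7 (50.8 ± 1.34%).

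ATF3 (chr1:212565334-212620777, plus strand), a stress-induced bZIP factor, was at 16.6, 14.0 and 19.0 CPM in siNC and 50.0, 48.9 and 46.7 CPM in siE7. The siE7 libraries were close together and all well above siNC, and this was the one rise among the members in which siE7 replicate 1 differed little from replicates 2 and 3. The mean rose 2.94-fold, from 16.5 ± 2.50 to 48.6 ± 1.67 CPM, a log2 fold change of 1.55 (SE 0.140, interval 1.25 to 1.86; adjusted p = 1.69e-05, edgeR). It was 1.47 without siE7 replicate 1.

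EGR1 (chr5:138465479-138469303, plus strand) was at 58.2, 57.7 and 61.6 CPM in siNC and 32.4, 24.3 and 20.3 CPM in siE7. It was lower in every siE7 library, least in replicate 1. The mean fell from 59.2 ± 2.11 to 25.6 ± 6.15 CPM, 2.31-fold lower, a log2 fold change of -1.21 (SE 0.162, interval -1.56 to -0.85; adjusted p = 0.000257, edgeR), and -1.47 without siE7 replicate 1. Counts of ATF3 were 0.286, 0.243 and 0.309 times those of EGR1 in siNC and 1.55, 2.01 and 2.30 times in siE7.

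IER3 (chr6:30743199-30744548, minus strand) was at 172, 155 and 167 CPM in siNC and 92.0, 78.5 and 76.4 CPM in siE7. All siE7 libraries were below all siNC libraries. The mean fell 2.00-fold, from 165 ± 8.35 to 82.3 ± 8.44 CPM, with a log2 fold change of -1.0 (SE 0.115, interval -1.25 to -0.75; adjusted p = 9.49e-05, edgeR). The value sits at the fold limit, and IER3 counted as a DEG under 7 of 14 alternative settings while its adjusted p stayed under 0.05 in all 14. Exons of IER3 overlap HCG20 and IER3-AS1 on the opposite strand, which averaged 0.211 and 0.0781 CPM in siNC and 0.0675 and 0.294 CPM in siE7.

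**Figure D3:**
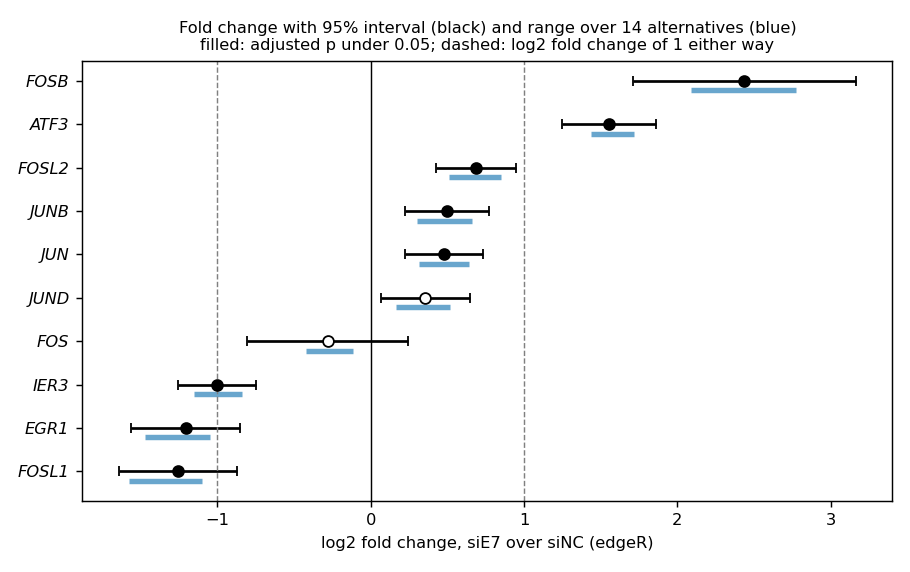
Log2 fold change (x axis, siE7 over siNC, edgeR) of each gene with its 95% interval (black, n = 3 per group) and the range over 14 alternative settings (blue bar). Filled points have an adjusted p under 0.05, and dashed lines mark a log2 fold change of 1 in either direction. FOSB and ATF3 lie beyond 1 and FOSL1 and EGR1 beyond -1 over the whole blue range, IER3 straddles -1, and the FOS interval spans 0.

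Per kilobase of canonical transcript, FOSL1 stood first in siNC at 244 ± 23.8 CPM per kb, followed by IER3 (133 ± 6.75), JUN (98.6 ± 4.19) and JUNB (75.4 ± 1.68), none of which overlapped its neighbours. JUND, FOSL2 and EGR1 followed at 20.9, 19.5 and 18.9 CPM per kb, and in this order the libraries of neighbours overlapped. ATF3 (8.53), FOS (1.79) and FOSB (0.318) came last and did not overlap. In siE7 JUN (137 ± 16.7), JUNB (106 ± 16.6) and FOSL1 (102 ± 29.0) were at the top and neighbours among them overlapped. IER3 came next at 66.6 CPM per kb, followed by FOSL2, JUND and ATF3 at 31.3, 26.8 and 25.0, again with overlapping neighbours, then EGR1 at 8.18, and FOSB and FOS at 1.73 and 1.47 with overlap. With the length of all exons joined in place of the canonical transcript, EGR1 and FOSL2 changed places in siNC and the ATF3 level in siE7 was 12.1 CPM per kb.

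**Figure D4:**
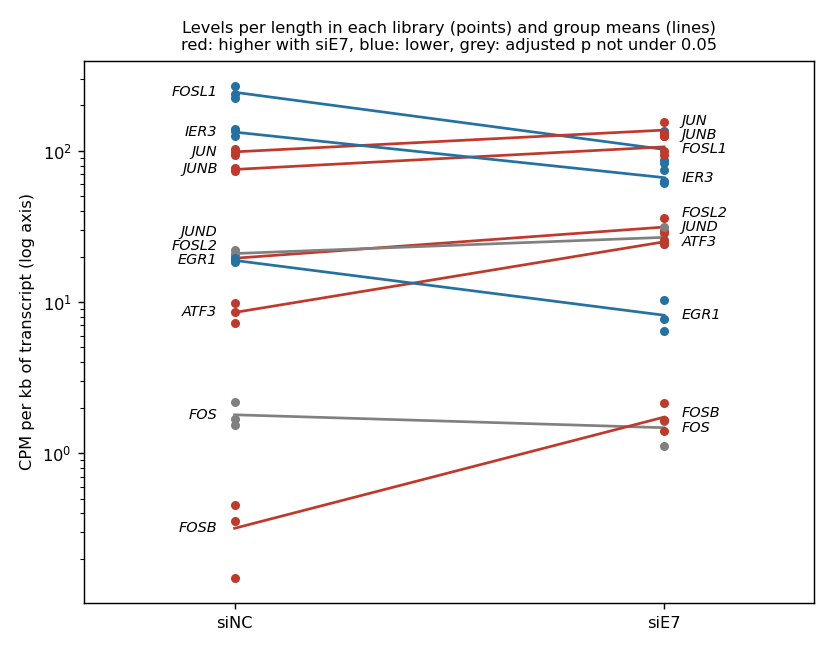
Level per kilobase of canonical transcript (y axis, CPM per kb, log axis) of each gene in the 3 libraries of siNC and siE7 (points), with lines joining group means. Red genes were higher with siE7, blue genes lower and grey genes had an adjusted p not under 0.05. FOSL1 falls from first place to the range of JUN and JUNB, and FOSB rises to the level of FOS.

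The genes whose level ran closest to FOSL1 over the 6 libraries were DLGAP4, ATP2A2 and SLC41A1 (Pearson r of log2 CPM of 0.9993, 0.9992 and 0.9991), and 181 genes had r above 0.99. For FOS the closest were RPL14P1 and ACTR5, with r of 0.980 and 0.977. The 6 points share the 2 groups and the libraries' scaling, and siE7 replicate 1 stands apart among them, while RPL14P1 averaged only 1.55 CPM in siNC.

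The genes around AP-1 were read from lists chosen with earlier results of these data known. Each is to be read beside all tested genes, of which 18.0% rose and 16.0% fell (7.38% and 4.84% as DEGs). These shares are for all 6 libraries. Without siE7 replicate 1 DEGs over all genes numbered 2219 in place of 1792, so counts of a list in that setting do not compare with these shares. Among 19 tested bZIP partners of AP-1, 10 rose and 2 fell at an adjusted p under 0.05 (edgeR), and the median log2 fold change was 0.69. The rises numbered 7 without siNC replicate 1 and 12 without siE7 replicate 1, and 8 without any 1 of the other libraries. The falls numbered 1 without siNC replicate 1, siNC replicate 3, siE7 replicate 2 or siE7 replicate 3. DDIT3 (CHOP), a stress-induced factor that pairs with C/EBP and ATF proteins, rose from 16.9 ± 1.81 to 54.1 ± 2.23 CPM, a log2 fold change of 1.68 (SE 0.129; adjusted p = 6.31e-06, edgeR). CEBPD (1.32) and JDP2 (1.05), a repressor that pairs with JUN, rose as well, although JDP2 was no DEG with DESeq2 or without siE7 replicate 1. BATF2, named after its values were seen as the one DEG of the list that fell, had a log2 fold change of -1.38 (SE 0.319; adjusted p = 0.00657, edgeR).

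The other immediate early genes were mixed, as the members were. Of 33 tested, 8 rose and 9 fell, against 18.0% and 16.0% of all tested genes. The fall of MAFF is counted both here and among the bZIP partners. As DEGs 5 rose and 2 fell, against 7.38% and 4.84%, and the median of the list was -0.23. The count that rose was 4 without siNC replicate 2 (3 DEGs) and 5 without siNC replicate 1 or siNC replicate 3, and the DEGs that fell numbered 1 without siNC replicate 3. NR4A3 and NR4A2, nuclear receptors, had log2 fold changes of 2.68 and 1.15, the former from an average of 0.146 CPM and the latter from 1.12 CPM, and NR4A2 was no DEG without siNC replicate 2. BTG1, an antiproliferative gene (1.13), and KLF4, a transcription factor of epithelial differentiation (1.12), also rose. CCN1, a secreted matrix protein, fell (-1.12, SE 0.117; adjusted p = 4.79e-05, edgeR), as did PHLDA1 (-1.09), and without composition scaling neither was a DEG, nor was PHLDA1 without siNC replicate 3. Without siE7 replicate 1, 16 genes of the list fell instead of 9, in a setting that also had more DEGs over all genes (2219 against 1792).

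Upstream, the list of ERK, JNK and p38 kinases and their receptors had 31 tested genes. Of these 2 rose and 7 fell, against 18.0% and 16.0% of all tested genes. The median of the list, -0.11, turned to 0.08 without composition scaling, a setting that moved the median of all tested genes by 0.169. Without siE7 replicate 1, a setting with more DEGs over all genes, the counts were 6 and 14. Without any 1 siNC library 0 rose at an adjusted p under 0.05 (edgeR). EGFR, the receptor for EGF, fell from 298 ± 10.4 to 124 ± 6.08 CPM, a log2 fold change of -1.27 (SE 0.105; adjusted p = 9.07e-06, edgeR). MAPK13 and MAP2K3, of the p38 branch, were at -1.11 and -1.07, and neither was a DEG without composition scaling, nor was MAP2K3 without siE7 replicate 3. The list of SRF and ternary complex factors, which act at CArG boxes such as those of EGR1, also held MEF2 genes, which are neither. Among its 9 tested genes 1 rose and 2 fell (4 without siE7 replicate 1), against 18.0% and 16.0% of all tested genes. The gene that rose was MEF2C (1.12, no DEG without siE7 replicate 3), and SRF itself was at 0.33 (adjusted p = 0.0803, edgeR).

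Among 15 tested MAP kinase phosphatases and feedback genes 2 rose and 8 fell, against 18.0% and 16.0% of all tested genes. The median of the list was -0.58, and 5 fell without siNC replicate 1. DUSP7, DUSP4 and DUSP6, which dephosphorylate ERK, and SPRY4, a feedback inhibitor of receptor signalling, were at -1.79, -1.51, -1.58 and -2.02. DUSP1 and DUSP9, named after their values were seen as the 2 that rose, were at 1.09 and 1.21, and DUSP1 went from 18.0 ± 0.702 to 38.3 ± 2.02 CPM. DUSP1 is itself an immediate early gene. DUSP9 was no DEG without siE7 replicate 1.

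The list of AP-1 target genes, that is genes with textbook AP-1 sites or known AP-1 dependence, had 25 tested genes, with a median of -1.29. Of these 18 fell, 13 of them as DEGs, and 1 rose (2 without siE7 replicate 1). Over all tested genes 16.0% fell, 4.84% as DEGs, and 18.0% rose. ITGA2, the collagen receptor subunit, fell from 43.0 ± 4.74 to 4.14 ± 0.176 CPM, a log2 fold change of -3.37 (SE 0.151; adjusted p = 2.46e-07, edgeR). IL1B, a cytokine, was at -2.14, the laminin chain LAMA3 at -1.89, the metallothionein MT2A at -1.60 and cyclin D1 (CCND1) at -1.48. VEGFA, named after its values were seen as the gene that rose, was at 0.75 (SE 0.110; adjusted p = 0.000433, edgeR). Many of these genes have regulators other than AP-1, and no binding was measured. Among 12 heat shock genes, stress genes outside the AP-1 group, 1 rose and 3 fell with no DEG. Without siE7 replicate 1, a setting with more DEGs over all genes, 7 fell. The rise was lost without any 1 of the other 5 libraries. DDIT3, JDP2, BTG1, PHLDA1, KLF4, MEF2C, CCND1, DUSP6, EGFR and VEGFA share exon positions with other annotated genes, so their counts are uncertain to that extent.

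siE7 replicate 1 was the highest siE7 library for 9 of 10 members, against 43.2% of all tested genes. It therefore lay nearer to siNC than replicates 2 and 3 for FOSL1, EGR1 and IER3, and farther from siNC for FOSB, FOSL2, JUN, JUNB, JUND and ATF3. What set this library apart was not tested.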

How the data were processed

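Directional poly(A) libraries of SCC-9 cells were sequenced as read pairs on an Illumina instrument. The authors deposited raw counts per gene for the 3 siE7 and 3 siNC libraries in one table, and the submitters' processing notes name HISAT2, DESeq2 and GRCh38. The counting tool, annotation release and strand setting are not given in the sources used here. Counting without strand, or leaving out reads that match overlapping genes, would move counts of genes such as JUNB and IER3.

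Counts were filtered with filterByExpr (14661 of 25349 genes kept), scaled with TMM factors and tested with the robust quasi-likelihood F-test of edgeR 4.0.16 (R 4.3.3), with Benjamini-Hochberg adjustment over all tested genes. A DEG had an adjusted p under 0.05 and changed by more than 1 on the log2 scale, which are the study's limits. Group means are of TMM-normalized CPM, intervals of 95% come from the fit, and levels per length use canonical transcript or joined exon lengths of the reference annotation. Single genes were also compared by an exact two-sided permutation test in SciPy 1.17.1. With 25608192 to 29550264 counts per library, genes at the lowest levels rest on few counts, such as FOSB with 14 to 45 in the siNC libraries. On simulated siE7 and siNC counts of 14618 genes with 200 changed by a log2 fold of 2, edgeR recovered 96% with 1 false call. The simulation gave all genes the same dispersion and held no library apart from its group. These rates therefore do not carry over to smaller changes or to siE7 replicate 1.

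The members and lists were chosen with earlier results of these data known. Named genes were the 10 members, MKI67, the 4 DEGs with the smallest p-values of each list that was not a marker list (6 for AP-1 targets and other immediate early genes), and the 3 genes with the highest Pearson r with FOSL1 and with FOS (log2 CPM, 0.5 CPM added). A few genes that this rule names are not reported here. Promoters were RefSeq sequences of GRCh38.p14. Alternatives were DESeq2 1.42.0, limma-voom (limma 3.58.1), other scalings and filters, a replicate block and leaving out each library.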

Additional observations from a re-analysis of the deposited data

How the results depend on the processing

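MKI67 and all 10 members kept their direction under all 14 alternatives. MKI67 stayed between -3.27 and -3.04 on the log2 scale, ATF3 between 1.44 and 1.72, FOSB between 2.09 and 2.77, FOSL1 between -1.57 and -1.10 and EGR1 between -1.47 and -1.05, and these 5 genes were DEGs in every setting. FOSL2 ranged from 0.51 to 0.85 with an adjusted p under 0.05 throughout, and FOS from -0.42 to -0.12 without passing the test in any. IER3 ranged from -1.15 to -0.84 and lost the fold limit with upper-quartile factors, without composition scaling, with at least 10 counts in every library, and without siNC replicate 1, siNC replicate 3, siE7 replicate 2 or siE7 replicate 3. JUN ranged from 0.31 to 0.64 and JUNB from 0.30 to 0.66. The test was lost for JUN without siNC replicate 2 or siNC replicate 3, and for JUNB without any 1 siNC library. JUND ranged from 0.17 to 0.52 and passed the test with upper-quartile factors (adjusted p = 0.0461), without composition scaling (0.00575), with at least 10 counts in every library (0.0437) and without siE7 replicate 3 (0.0480), as edgeR adjusted p-values.

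The number of DEGs over all genes was 1792, and 4990 genes passed with no condition on the fold change, which counted 8 members in place of 5. The other settings gave 1365 to 2219 DEGs (1573 to 2219 with 1 library left out) and 4 or 5 members. DESeq2 gave 1716 and limma-voom 1760. Without composition scaling 76.2% of DEGs were higher in siE7, against 60.4% with TMM. A replicate block gave 1819 DEGs and 5 members and changed no call of a member. Same-numbered libraries did not deviate together (correlations of -0.0552, -0.0191 and -0.0789). With 3 libraries per group, and siE7 replicate 1 apart, this cannot show whether they were paired. The counts limit FOS and FOSB most.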
